A study of Mus musculus with 8 samples.

Results

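The core circadian clock of the liver is described here through 10 genes, found by their symbols in the gene lists of the deposited count tables: Arntl, Clock, Npas2, Per1, Per2, Per3, Cry1, Nr1d1, Dbp and Tef. All 10 were among the 32285 genes listed, and all 10 passed the low-count filter of every test below. Their transcripts were counted by single-nucleus RNA sequencing of snap-frozen livers of 8 male DIAMOND mice, a cross of 129A1/SvIm and C57BL/6J in which a high-fat diet with fructose and glucose in the drinking water leads to fatty liver disease and tumours. The WD tumour group (n = 3 mice) was fed this Western diet for 48 weeks and had hepatocellular carcinoma (HCC), the cancer that arises from hepatocytes. Diet was reversed to standard chow after 36 weeks in the other 5 mice. Of these, the RD tumour group (n = 2) had HCC, and in the mice called RD no tumour (n = 3) none was detectable. All 3 groups share the strain cross, the sex and at least 36 weeks of Western diet, and no mouse stayed on chow throughout. The labels give an age of 48 weeks at the end of the study, which is at odds with a diet begun at 2 months and kept for 48 weeks, so the age is uncertain. The labels name neither the hour of the day at which a liver was taken nor whether the piece sampled held tumour tissue, so hour and group cannot be told apart in any comparison below.

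The mammalian clock is a feedback loop of transcription. The activators ARNTL (also called BMAL1) and CLOCK, or its relative NPAS2, pair and switch on the Period and Cryptochrome genes, whose proteins return to block the activators; a second arm runs through NR1D1 (REV-ERB alpha), which represses Arntl, Clock, Npas2 and Cry1. DBP and TEF are transcription factors driven by the same activators that carry the rhythm to output genes. In mouse liver Arntl and Npas2 peak at the time of day at which Dbp, Nr1d1 and the Period genes are low. The ratio between both sets thus varies with the time of day, though a single ratio does not fix the hour.

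The promoter windows of 9 of the 10 genes were in the RefSeq table for build GRCm38.p6 (250 bases before to 50 bases after each annotated start), with 14 windows in all and none for Per2. Each was searched on both strands for 3 motifs named in textbooks of the clock: CACGTG (the E-box bound by ARNTL with CLOCK), TTATGTAA or TTACGTAA (the D-box bound by DBP and TEF) and TAGGTCA (a site type bound by ROR and REV-ERB receptors). The E-box letters were present in 4 of the 14 windows, in Per1, Cry1 and 2 windows of Tef, against 7.15% of all 32851 windows of this length. The D-box letters stood in the window of Per3, at 2 places, against 1.06% of all windows. The TAGGTCA letters stood in 1 window of Arntl, against 2.61%. No motif overlapped another in these windows, and a missing match says only that these letters are not in this stretch. The stretches that held a match are shown because they belong to genes whose levels are compared below, written 5′ to 3′ on the strand of the gene, with the motif in capitals. They cover bases before an annotated start for Per3 (chr4:151044666-151044915, minus strand), Cry1 (chr10:85185065-85185304, minus strand), Per1 (chr11:69098699-69098947, plus strand) and Tef (chr15:81811164-81811413, plus strand); those of Per1 and Tef precede starts inside the annotated gene. For Arntl (chr7:113207530-113207558, plus strand) and for another window of Tef (chr15:81802534-81802563, plus strand) only the site is shown, since both lie in an exon.
Per3: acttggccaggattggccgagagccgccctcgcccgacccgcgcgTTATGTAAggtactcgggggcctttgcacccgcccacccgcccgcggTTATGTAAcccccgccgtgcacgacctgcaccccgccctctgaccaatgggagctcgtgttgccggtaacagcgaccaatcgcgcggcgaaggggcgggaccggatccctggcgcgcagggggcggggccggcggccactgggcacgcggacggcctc
Cry1: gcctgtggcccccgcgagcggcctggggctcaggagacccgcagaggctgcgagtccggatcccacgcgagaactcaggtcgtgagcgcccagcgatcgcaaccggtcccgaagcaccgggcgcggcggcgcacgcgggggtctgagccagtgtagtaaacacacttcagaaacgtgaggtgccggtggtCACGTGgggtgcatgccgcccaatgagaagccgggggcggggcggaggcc
Per1: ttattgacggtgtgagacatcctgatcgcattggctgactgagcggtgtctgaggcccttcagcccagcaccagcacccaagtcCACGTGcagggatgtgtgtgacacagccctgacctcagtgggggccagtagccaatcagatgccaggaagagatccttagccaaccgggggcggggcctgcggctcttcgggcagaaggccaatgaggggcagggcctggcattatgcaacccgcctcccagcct
Tef: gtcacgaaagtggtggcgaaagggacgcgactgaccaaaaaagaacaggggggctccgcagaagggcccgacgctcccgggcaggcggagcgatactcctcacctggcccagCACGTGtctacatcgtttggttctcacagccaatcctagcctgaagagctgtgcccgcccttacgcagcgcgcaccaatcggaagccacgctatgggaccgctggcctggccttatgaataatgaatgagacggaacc
Tef, other window: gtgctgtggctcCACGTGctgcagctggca
Arntl: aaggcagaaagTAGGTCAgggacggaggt

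Every library held hepatocyte markers at a high level (9 of 9 detected, summed to 20918 to 33898 CPM, the UMIs of a gene divided by all UMIs of the library and scaled to 1000000, where a UMI is 1 tagged RNA molecule), which fits the labelled tissue. Totals ran from 17948627 UMIs (WD tumour 1) to 34363108 (RD tumour 1) over 6048 to 20000 nuclei with at least 300 detected genes, and libraries shared 8 to 65 cell barcodes in pairs, at most 0.676% of the smaller. RD tumour 1 stood apart: it had exactly 20000 barcodes, its kept nuclei were 48.3% ungated, and its 6 neutrophil markers (6 of 6 detected in every library) summed to 2418 CPM. That sum was 94.9 CPM in RD tumour 2, 27.9 to 701 CPM in RD no tumour and 34.6 to 178 CPM in WD tumour. WD tumour 1 and WD tumour 3 had median mitochondrial shares of 7.91% and 7.51% of a nucleus's UMIs, against 1.30% to 3.28% in the other 6 libraries.

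Arntl and Clock were highest in both RD tumour libraries, and Npas2 in 1 of them. Arntl (ENSMUSG00000055116, chromosome 7, 113207465 to 113314126, plus strand), which encodes the partner common to both activator pairs, stood at 19.4, 65.7 and 39.1 CPM in RD no tumour 1 to 3, at 98.4 and 136 CPM in RD tumour 1 and 2, and at 25.2, 43.1 and 23.6 CPM in WD tumour 1 to 3. Both RD tumour mice lay above all 6 others, whereas RD no tumour and WD tumour overlapped. Clock (ENSMUSG00000029238, chromosome 5, 76209868 to 76304792, minus strand) had 96.1, 171 and 133 CPM in RD no tumour, 184 and 199 CPM in RD tumour, and 108, 119 and 97.0 CPM in WD tumour. Its order was that of Arntl at both ends, with RD no tumour 1 lowest and RD tumour 2 highest, over a range of only 2.07-fold. Npas2 (ENSMUSG00000026077, chromosome 1, 39193731 to 39363236, plus strand) had the widest range, 104-fold. It stood at 2.16, 1.06 and 12.1 CPM in RD no tumour, 12.9 and 110 CPM in RD tumour, and 1.56, 14.1 and 11.0 CPM in WD tumour. A single library, RD tumour 2, was far above the rest; RD tumour 1 lay within the range of WD tumour, and 3 libraries (RD no tumour 1 and 2 and WD tumour 1) were at 2.16 CPM or below. In whole libraries, fewer nuclei of a cell type and less RNA per nucleus cannot be told apart.

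The output factors Dbp and Tef ran the other way. Dbp (ENSMUSG00000059824, chromosome 7, 45705088 to 45710203, plus strand) had 14.2, 12.7 and 19.5 CPM in RD no tumour, 8.99 and 3.20 CPM in RD tumour, and 38.1, 7.78 and 81.7 CPM in WD tumour. WD tumour 1 and 3 were above all other mice, and WD tumour 2 lay between the RD tumour mice. Tef (ENSMUSG00000022389, chromosome 15, 81802421 to 81826863, plus strand) had 76.6, 99.3 and 110 CPM in RD no tumour, 49.8 and 51.9 CPM in RD tumour, and 145, 62.3 and 173 CPM in WD tumour. The same 2 WD tumour mice were highest, and both RD tumour mice were lowest. The libraries highest for Dbp and Tef are those with the high mitochondrial share given above; its part in these levels was not tested.

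Among the repressors, Per3 followed Dbp and Tef, while Per1 and Per2 did not. Per3 (ENSMUSG00000028957, chromosome 4, 151003652 to 151044665, minus strand) had 44.5, 37.6 and 20.6 CPM in RD no tumour, 8.06 and 11.8 CPM in RD tumour, and 75.9, 17.4 and 101 CPM in WD tumour. WD tumour 1 and 3 were again highest and both RD tumour mice lowest. The span of Per3 lies wholly within that annotated for Camta1 on the same strand, so how reads of both genes were told apart depends on the authors' counting. Per1 (ENSMUSG00000020893, chromosome 11, 69095217 to 69109960, plus strand) was nearly level at 46.2, 48.0 and 44.7 CPM in RD no tumour, 49.2 CPM in RD tumour 2 and 42.7, 37.9 and 52.5 CPM in WD tumour, with RD tumour 1 alone at 107 CPM. Its mean was 46.3 ± 1.62 CPM in RD no tumour (SD, n = 3) and 44.4 ± 7.47 CPM in WD tumour (SD, n = 3). Per2 (ENSMUSG00000055866, chromosome 1, 91415982 to 91459324, minus strand) had 48.5, 60.4 and 25.6 CPM in RD no tumour, 29.7 and 54.1 CPM in RD tumour, and 76.8, 35.8 and 57.2 CPM in WD tumour, and all 3 groups overlapped.

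Cry1, a late-phase repressor of the activators, and Nr1d1, the repressor of the second arm, varied within every group. Cry1 (ENSMUSG00000020038, chromosome 10, 85131700 to 85185064, minus strand) had 24.7, 88.1 and 9.62 CPM in RD no tumour, 61.3 and 105 CPM in RD tumour, and 35.0, 10.8 and 15.0 CPM in WD tumour. It was high in the RD tumour mice and in RD no tumour 2, the library with the highest Arntl of its group. Nr1d1 (ENSMUSG00000020889, chromosome 11, 98767932 to 98775333, minus strand) had 7.75, 3.18 and 18.9 CPM in RD no tumour, 26.8 and 1.54 CPM in RD tumour, and 11.3, 7.91 and 32.9 CPM in WD tumour. Its lowest and second highest libraries were both RD tumour. In RD tumour 1, Arntl, Per1 and Nr1d1 were thus high at once, whereas in RD tumour 2 Arntl was high with Nr1d1 low. The part that the neutrophil RNA of RD tumour 1 has in its Per1 and Nr1d1 was not tested; in its hepatocyte-gated nuclei, which carried 1101 CPM of those markers, Per1 stood at 115 CPM and Nr1d1 at 23.4 CPM. Nr1d1 and Dbp overlap Thra and Sphk2 on the opposite strand, and the strand setting of the counting is not given in the sources used here.

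**Figure D1:**
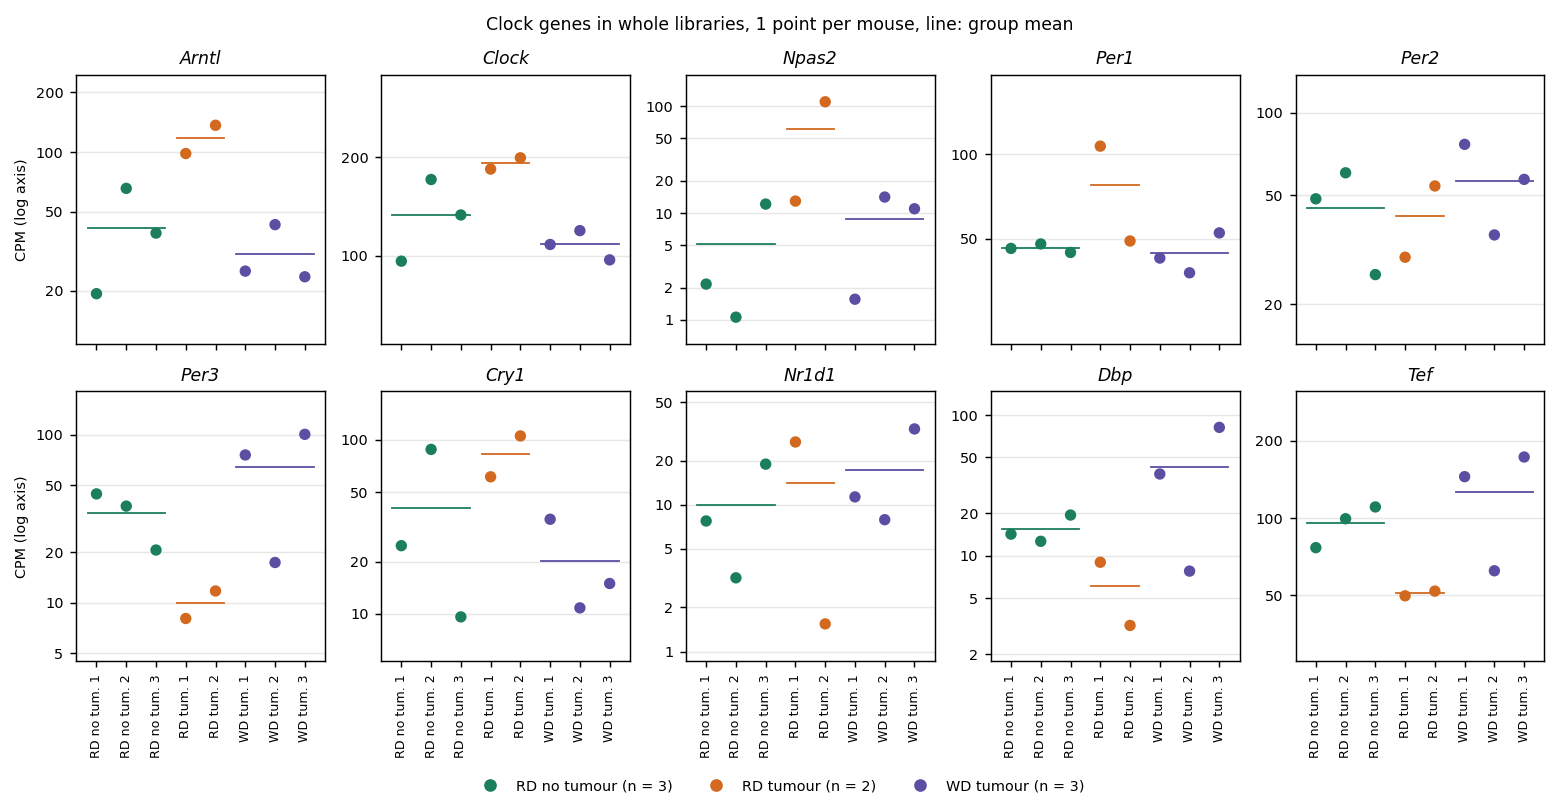
Level of each of the 10 clock genes in the 8 whole libraries, in CPM on a log axis whose range differs between panels; each point is 1 mouse and each line the mean of its group. Arntl and Clock are highest in the 2 RD tumour mice, Per3 and Tef lowest there, and WD tumour 2 lies apart from WD tumour 1 and 3 for Per3, Dbp and Tef.

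Groups were compared with edgeR's quasi-likelihood test on UMI counts summed per mouse, with all 3 groups in 1 fit. For WD tumour against RD no tumour, which differ in diet and in tumour, edgeR called 0 of the 10 genes at an adjusted p (Benjamini-Hochberg) of 0.05, and 0% of the 19087 genes tested. None of the 10 had an unadjusted p under 0.05 (2.75% of all genes did), and DESeq2 called none of the 10 (0.188% of all genes). The largest differences were those of Dbp, with a log2 fold change of 1.42 ± 0.78 (SE), and Cry1, with -1.03 ± 0.80; both had an adjusted p of 1.0 by edgeR's quasi-likelihood test. The 2 groups overlapped for all 10 genes, where 10.7% of all genes tested did not overlap (6.85% higher and 3.8% lower in WD tumour). The median size of the change, leaving out its sign, was 0.59 for the 10 genes and 0.22 for all genes.

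Between RD tumour and RD no tumour, the comparison by tumour under the same diet history, edgeR called 0 of the 10 genes and 0% of all genes. Npas2, Arntl and Per3 had an unadjusted p under 0.05, or 3 of 10 against 6.7% of all genes, and DESeq2 called none of the 10 (0.362% of all genes). Log2 fold changes were 3.42 ± 1.31 for Npas2, 1.41 ± 0.50 for Arntl and -1.84 ± 0.71 for Per3 (SE), each with an edgeR adjusted p of 0.612. Values of 7 of the 10 genes did not overlap between the groups: Arntl, Clock, Npas2 and Per1 were higher in both RD tumour mice, and Per3, Dbp and Tef lower. Of all genes tested, 16.7% did not overlap (10.8% higher and 5.85% lower). Npas2 rested on RD tumour 2, with a log2 fold change of 4.24 without RD tumour 1 and 1.25 without RD tumour 2. Arntl (1.58 and 1.20) and Per3 (-1.65 and -2.10) moved less. Nr1d1 turned from 0.46 to -2.84 without RD tumour 1. Without RD tumour 2, which leaves RD tumour 1 as the only mouse of its group, edgeR called Per1 (log2 fold change 1.18, adjusted p = 0.0219), along with 4569 of all genes.

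For WD tumour against RD tumour, the comparison by diet among tumour-bearing mice, edgeR again called 0 of the 10 genes and 0% of all genes. Per3, Arntl, Dbp, Tef and Clock had an unadjusted p under 0.05, or 5 of 10 against 7.56% of all genes. Log2 fold changes were 2.75 ± 0.74 for Per3, 2.81 ± 0.97 for Dbp and 1.35 ± 0.47 for Tef, and -1.92 ± 0.51 for Arntl and -0.81 ± 0.30 for Clock (SE), all at an edgeR adjusted p of 0.590. DESeq2 called Per3 (adjusted p = 0.0280), 1 of 10 against 0.662% of all genes. The groups did not overlap for Per3 and Tef (higher in WD tumour) and for Arntl, Clock and Cry1 (lower), 5 of 10 against 21.4% of all genes (10.4% higher and 11% lower). Dbp overlapped because WD tumour 2 (7.78 CPM) lay below RD tumour 1 (8.99 CPM). Without RD tumour 2, edgeR called Per1 (log2 fold change -1.28, adjusted p = 0.0185) and 4438 of all genes. The median size of the change was 1.64 for the 10 genes and 0.48 for all genes. These 3 comparisons share their groups in pairs and are not independent of one another.

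The clock genes varied widely within groups as well. Over the 8 libraries, the median range of a clock gene was 3.04 on the log2(CPM + 1) scale, against 1.28 for all genes tested. Without RD tumour 1 it was 2.87 against 0.85. Within RD no tumour alone the medians were 1.14 for the 10 genes and 0.55 for all genes, and within WD tumour 1.53 and 0.46. Within RD no tumour, Cry1 ranged 9.15-fold, Npas2 11.5-fold and Nr1d1 5.95-fold, while Per1 ranged 1.07-fold. Within WD tumour, Dbp ranged 10.5-fold, Npas2 9.06-fold, Per3 5.80-fold and Clock 1.23-fold. The share of a gene's variance that lay within groups was 89.1% for Nr1d1 and 86.4% for Per2, 54.3% for Cry1, 51.6% for Dbp, 51.3% for Per1 and 49.8% for Npas2, and was lower for Tef (44.2%), Per3 (40.0%), Clock (32.3%) and Arntl (29.1%). Its median was 50.6% over the 10 genes and 70.9% over all genes.

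Genes of opposite daily phase were compared library by library. Of the 10 pairs of Arntl or Npas2 with Dbp, Per1, Per2, Per3 or Nr1d1, 8 had a negative Pearson correlation over the 8 libraries. Arntl and Per3 had r = -0.81 (exact permutation test, two-sided, p = 0.0186) and rho = -0.83 (exact p = 0.0154). Arntl and Dbp had r = -0.76 (exact p = 0.0267) and rho = -0.79 (exact p = 0.0279). After Benjamini-Hochberg adjustment over the 10 pairs both stood at 0.133 for r and 0.140 for rho (exact permutation), so 0 pairs passed. With the 2 libraries farthest from the median of Arntl left out, RD tumour 1 and 2, r was -0.58 for Per3 and -0.54 for Dbp. Part of both relations rests on those mice. Arntl and Nr1d1 had r = -0.44 (exact p = 0.274), and r = -0.77 (exact p = 0.0433, adjusted 0.163) over the 7 libraries without RD tumour 1. The pairs with Per1 had a positive r, 0.46 with Arntl and 0.16 with Npas2. Npas2 had r = -0.50 with Dbp and -0.60 with Per3. Over the 8 pairs other than those of Arntl with Dbp and Per3, the adjusted p for r was 0.372 or above (exact permutation). For Npas2 and Nr1d1, the r of -0.16 turned to 0.70 without RD tumour 2.

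**Figure D2:**
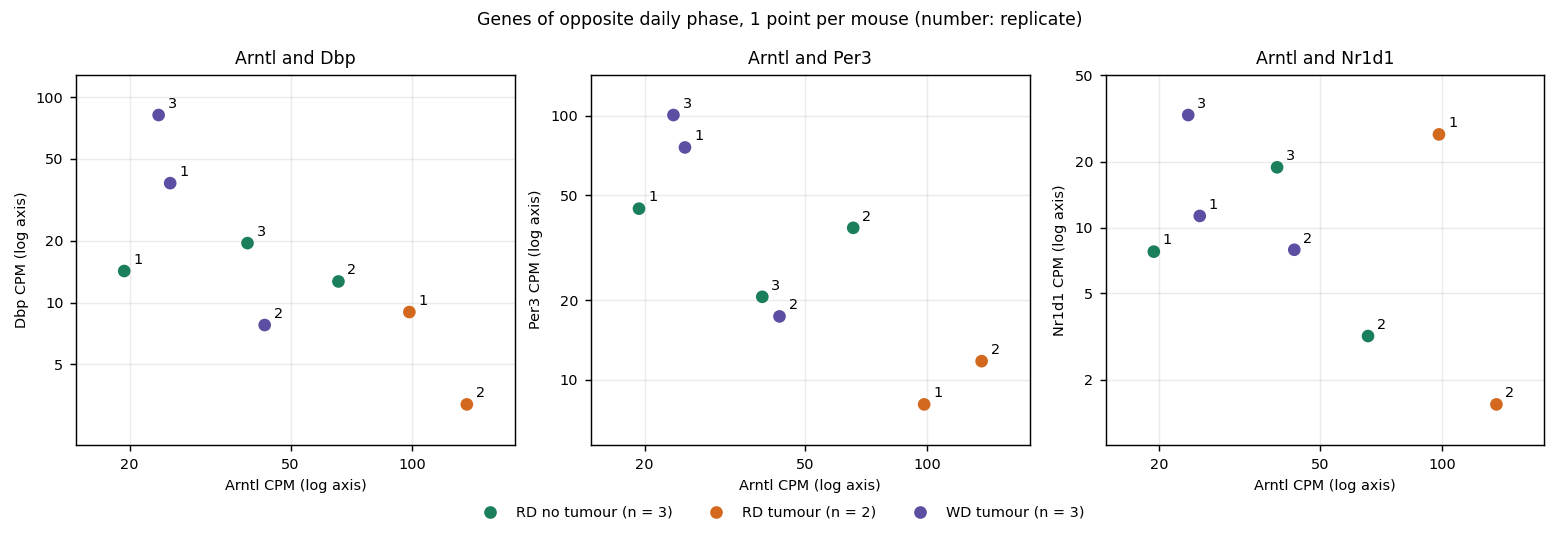
Level of Dbp, Per3 and Nr1d1 against that of Arntl in the 8 whole libraries, in CPM on log axes; each point is 1 mouse, coloured by group and numbered by replicate. Dbp and Per3 are low where Arntl is high, while RD tumour 1, at 98.4 CPM of Arntl and 26.8 CPM of Nr1d1, lies off the trend of the other 7 mice for Nr1d1.

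A phase index was formed for each library, as the mean centred log2(CPM + 1) of Dbp, Per1, Per2, Per3 and Nr1d1 minus that of Arntl and Npas2. It is a description with no test, and a high value means high Dbp, Period and Nr1d1 transcripts relative to Arntl and Npas2. The index was 1.41, 0.64 and -0.19 in RD no tumour 1 to 3, -0.96 and -3.58 in RD tumour 1 and 2, and 2.01, -0.84 and 1.51 in WD tumour 1 to 3. Group means were 0.62 ± 0.80 (SD, n = 3), -2.27 ± 1.86 (SD, n = 2) and 0.89 ± 1.52 (SD, n = 3) in that order. RD tumour 2 and RD tumour 1 took the low end of the order, followed by WD tumour 2 and RD no tumour 3, and WD tumour 1 and 3 took the high end. WD tumour 2 lay nearer to RD tumour 1 than to either other mouse of its own group. The whole range was 5.59 and fell to 2.97 without RD tumour 2. With 2 or 3 mice a group and no hour in the labels, a shift of the clock between groups and a difference in the hour of sampling between mice give the same values here.

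**Figure D3:**
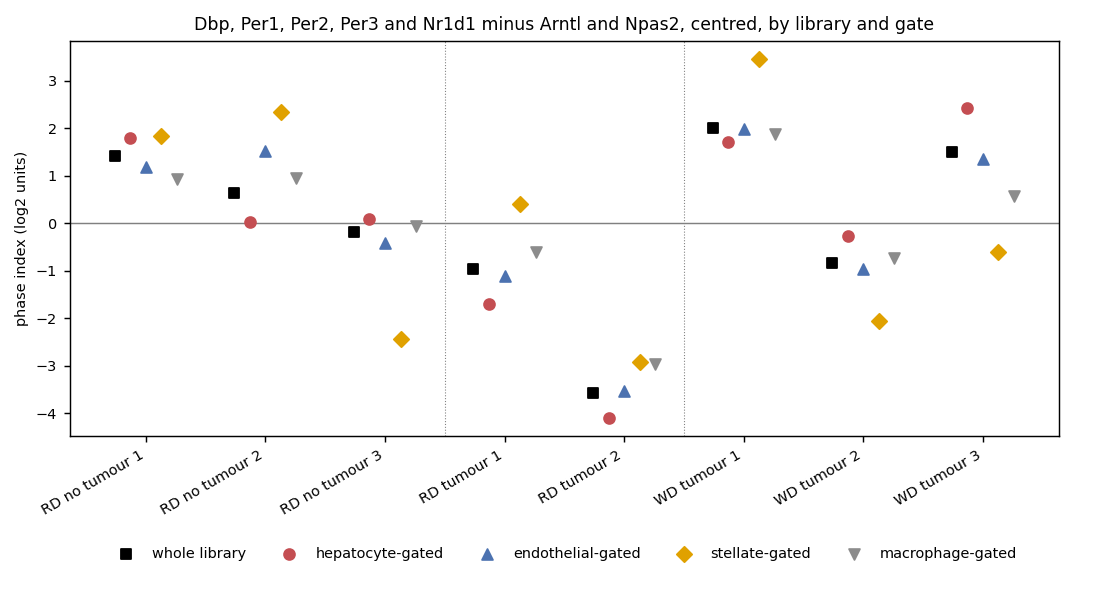
Phase index of each library, in log2 units, for the whole library and for nuclei gated as 4 cell classes. Genes were centred within each class, and the grey line at 0 is the mean of a class over the 8 libraries. RD tumour 2 is lowest in every class, and the stellate-gated value of RD no tumour 3, WD tumour 2 and WD tumour 3 lies below the other values of the same mouse.

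Nuclei were then gated by their marker genes. The hepatocyte gate took at least 4 of 9 hepatocyte markers and under 2 markers of any other class. Each other gate took at least 3 markers of its own class, more than of any other class except hepatocytes. Hepatocyte markers did not count against these other gates. By library, their nuclei had a median of 5 to 8 hepatocyte and 4 to 7 own markers (endothelial gate). The medians were 5.5 to 8 and 3 to 5 in the stellate gate, and 6 to 8 and 3 to 5 in the macrophage gate. A gate is a range and not a cell type. At its cut of the marker count lay 0.0688% to 30.2% of the nuclei of the hepatocyte gate and 17.7% to 59.1% of those of the stellate gate, the highest of each in RD tumour 1. Hepatocyte RNA was present in all gates, and the 10 leading genes of the hepatocyte gate held none of its markers in any library and haemoglobin genes in 5. Hepatocyte-gated nuclei (2815 to 6681 a library) repeated the order of whole libraries at its low end, with an index of -4.10 in RD tumour 2, -1.70 in RD tumour 1 and -0.27 in WD tumour 2. Npas2 stood at 123 CPM in RD tumour 2, 16.4 CPM in RD tumour 1, 1.56, 1.16 and 7.09 CPM in RD no tumour, and 1.09, 7.63 and 3.52 CPM in WD tumour. Both RD tumour mice were above all others for Npas2 in this gate, which was not so in whole libraries. Per3 stood at 4.91 and 9.72 CPM in RD tumour, 21.9 to 58.6 CPM in RD no tumour and 19.2 to 118 CPM in WD tumour.

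In hepatocyte-gated nuclei, edgeR called 0 of the 10 genes and 0% of 16291 genes in each of the 3 comparisons. For WD tumour against RD tumour, 6 of the 10 had an unadjusted p under 0.05 (9.51% of all genes), and DESeq2 called Npas2, Per3, Dbp and Tef (0.835% of all genes). Log2 fold changes by edgeR were -3.98 ± 1.17 for Npas2, 3.45 ± 0.84 for Per3, 3.20 ± 0.94 for Dbp and 1.63 ± 0.40 for Tef (SE), all at an adjusted p of 0.514. For RD tumour against RD no tumour, 3 of 10 had an unadjusted p under 0.05 (14% of all genes), and DESeq2 called Npas2 and Per3 (3.95% of all genes). The edgeR values were 4.20 ± 1.17 for Npas2 (adjusted p = 0.274) and -2.56 ± 0.80 for Per3 (adjusted p = 0.290). For WD tumour against RD no tumour, 0 of 10 had an unadjusted p under 0.05 (4.41% of all genes) and DESeq2 called 0 of 10 (0.481% of all genes). The groups did not overlap for 0 of 10 genes in this last comparison (13.4% of all genes, 7.92% higher and 5.52% lower). They did not overlap for 6 of 10 between RD tumour and RD no tumour (26.3% of all genes, 18.1% higher and 8.19% lower), with Arntl, Clock and Npas2 higher and Per3, Dbp and Tef lower. Between WD tumour and RD tumour the number was 7 of 10 (26.8% of all genes, 9.72% higher and 17% lower), with Per3, Dbp and Tef higher and Arntl, Clock, Npas2 and Cry1 lower.

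In endothelial-gated nuclei (727 to 2025 a library), edgeR called 0 of 10 and 0% of 14715 genes in each comparison; at an unadjusted p under 0.05 were 0, 4 and 7 of 10 (1.77%, 8.03% and 8.71% of all genes) (in order WD tumour with RD no tumour, RD tumour with RD no tumour, WD tumour with RD tumour). DESeq2 called Arntl in the last (adjusted p = 0.0212, log2 fold change -1.86), 1 of 10 against 0.409% of all genes, and none of the 10 in the other 2 (0.0288% and 0.402%). The groups did not overlap for 0 of 10 genes between WD tumour and RD no tumour (9.6% of all genes, 6.68% higher and 2.92% lower). Between RD tumour and RD no tumour 8 of 10 did not overlap (19.1% of all genes, 11.9% higher and 7.28% lower), with Arntl, Clock, Npas2, Cry1 and Per1 higher and Per3, Dbp and Tef lower. Between WD tumour and RD tumour 5 of 10 did not overlap (22.4% of all genes, 12.1% higher and 10.4% lower), with Per3 higher and Arntl, Clock, Npas2 and Cry1 lower. This gate was weaker in RD tumour 1 and 2, where its markers summed to 2133 and 2616 CPM, against 3676 to 6473 CPM elsewhere. At its cut lay 48.7% and 21.7% of its nuclei in those mice, against 7.19% to 16.3% elsewhere. How far RNA from other cells shapes the endothelial-gated values of RD tumour was not tested.

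Stellate-gated nuclei, which carry markers of the vitamin A-storing cells and fibroblasts of the liver, differed from the hepatocyte gate in Npas2 and in the order of the mice. Npas2 stood at 125 CPM in RD no tumour 3, 98.5 CPM in RD tumour 2, 91.0 CPM in WD tumour 2 and 63.7 CPM in WD tumour 3 (126 to 221 UMIs each). In the hepatocyte gate of RD no tumour 3, WD tumour 2 and WD tumour 3 it was at 7.09, 7.63 and 3.52 CPM. In the other 4 mice stellate-gated Npas2 was low, at 10.3 CPM in RD no tumour 1 and 10.5 CPM in RD tumour 1 (22 and 4 UMIs) and at 1.34 and 1.72 CPM in RD no tumour 2 and WD tumour 1 (2 UMIs each). Stellate-gated against hepatocyte-gated nuclei of the same mice, edgeR with the mouse as a block gave Npas2 a log2 fold change of 2.24 ± 0.64 (SE, adjusted p = 0.0117), higher in 6 of 8 mice. It was 2.54 without RD tumour 1 (adjusted p = 0.00431). Of all 12941 genes, 23.2% were called higher and 29.8% lower in this comparison, which was added after the data were seen. Hepatocyte markers in the stellate gate were at 60.1% to 95.4% of their level in the hepatocyte gate of the same mouse, and the part of RNA from other cells in its counts was not tested.

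Arntl differed between both gates in opposite directions from mouse to mouse. It was lower in stellate-gated than in hepatocyte-gated nuclei of RD no tumour 2 (24.8 against 82.4 CPM), WD tumour 1 (9.46 against 27.0 CPM), RD tumour 1 (63.0 against 116 CPM) and RD no tumour 1 (6.11 against 12.8 CPM). It was higher in WD tumour 3 (64.2 against 14.1 CPM), WD tumour 2 (70.6 against 31.4 CPM) and RD no tumour 3 (71.2 against 33.3 CPM). In RD tumour 2 it was 123 against 151 CPM. Over the 8 mice the difference was -0.10 ± 0.42 on the log2 scale (SE, edgeR adjusted p = 0.873). The 3 mice with higher stellate-gated Arntl are those named above for Npas2. Their stellate-gated index was -2.43 (RD no tumour 3), -2.06 (WD tumour 2) and -0.62 (WD tumour 3), where the hepatocyte gate had 0.10, -0.27 and 2.44. In the other 5 mice the stellate-gated index was the higher, at 2.33 against 0.02 (RD no tumour 2), 0.40 against -1.70 (RD tumour 1), 3.47 against 1.72 (WD tumour 1), -2.93 against -4.10 (RD tumour 2) and, by little, 1.835 against 1.799 (RD no tumour 1). Each gene was centred within its own gate, so the gaps between gates cancel over the 8 mice and cannot all share a sign. They compare the place of a mouse within each gate and give no absolute difference between gates. No test of this difference in order was made, and the stellate gate of RD tumour 1 held only 164 nuclei. Counts in the stellate gate were small, with 11 UMIs of Arntl, 5 of Dbp and 3 of Nr1d1 in the lowest library for each.

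**Figure D4:**
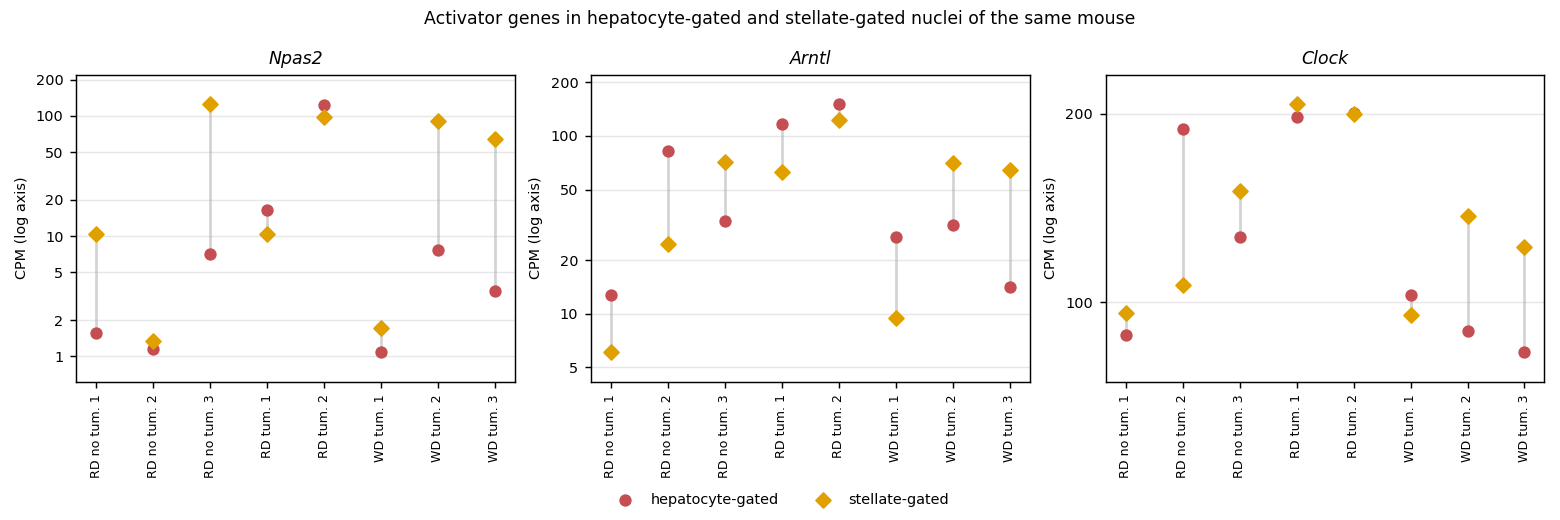
Level of Npas2, Arntl and Clock in hepatocyte-gated (circles) and stellate-gated (diamonds) nuclei of each mouse, in CPM on log axes, with a grey line joining both gates of a mouse. Npas2 is far higher in the stellate gate of RD no tumour 3, WD tumour 2 and WD tumour 3, and Arntl is higher there in the same mice. Arntl is lower in the stellate gate of RD no tumour 1 and 2, WD tumour 1, RD tumour 1 and, by less, RD tumour 2.

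Per2 and Cry1 were lower outside the hepatocyte gate, though not in every mouse. In the same fits, Per2 was lower in stellate-gated (log2 fold change -0.60 ± 0.22 SE, adjusted p = 0.0350), endothelial-gated (-0.52 ± 0.14, adjusted p = 0.0113) and macrophage-gated nuclei (-0.89 ± 0.14, adjusted p = 0.000583), lower in 8 of 8 mice in the last. By CPM, Per2 was higher than in the hepatocyte gate in 3 of 8 mice for stellate-gated and 2 of 8 for endothelial-gated nuclei. Cry1 was lower in stellate-gated (-0.68 ± 0.13, adjusted p = 0.000980), endothelial-gated (-0.37 ± 0.14, adjusted p = 0.0437) and macrophage-gated nuclei (-0.81 ± 0.18, adjusted p = 0.00332). By CPM, Cry1 was higher than in the hepatocyte gate in 1, 2 and 0 of 8 mice in that order. Tef was lower in endothelial-gated (-0.56 ± 0.11, adjusted p = 0.00205) and macrophage-gated nuclei (-0.83 ± 0.16, adjusted p = 0.00139), in 8 of 8 mice of each. In all, edgeR called 5 of the 10 genes lower in endothelial-gated, 2 lower and 1 higher in stellate-gated and 7 lower in macrophage-gated nuclei. Of all genes, 29.9%, 29.8% and 30.1% were called lower, and 54.8%, 53% and 56.5% in either direction. Without RD tumour 1, Per3 in endothelial-gated nuclei (adjusted p = 0.0349) and Per1 in stellate-gated nuclei (adjusted p = 0.0482) were called lower as well. Clock was called in none of the 3 (adjusted p = 0.726, 0.900 and 0.548 in the same order).

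The other genes of the clock and its outputs were taken as 4 lists, each tested in whole libraries. Of 18 further clock regulators, 0 were called by edgeR in any comparison, and 0, 2 and 1 had an unadjusted p under 0.05 (in order WD tumour with RD no tumour, RD tumour with RD no tumour, WD tumour with RD tumour). Of all genes tested, 2.75%, 6.7% and 7.56% did in the same order. Nfil3, a repressor of D-box genes that is high when Dbp is low, had 28.6, 34.6 and 24.7 CPM in RD no tumour, 68.2 and 49.7 CPM in RD tumour, and 16.8, 27.9 and 12.6 CPM in WD tumour. Its log2 fold change was -1.63 ± 0.36 for WD tumour against RD tumour (SE, edgeR adjusted p = 0.590), and both RD tumour mice lay above all others, as they did for Arntl. Hlf, a relative of Dbp and Tef, was at 14.6 CPM in RD tumour 1 and 31.8 to 168 CPM in the other 7 mice, with a log2 fold change of -1.16 ± 0.93 for RD tumour against RD no tumour and 1.45 ± 0.94 for WD tumour against RD tumour (SE). Ciart, a repressor of the activators, ran from 1.42 CPM in WD tumour 2 to 33.8 CPM in WD tumour 3 within 1 group, with values of -1.24 ± 1.17 and 1.49 ± 1.19 (SE) in the same comparisons. Bhlhe41, another repressor, stood at 0.22 to 2.40 CPM in all 8 libraries.

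Liver output genes of the clock were read next. Of 18 such genes, 0 were called by edgeR, and 1, 2 and 2 had an unadjusted p under 0.05 in the same order of comparisons (2.75%, 6.7% and 7.56% of all genes). Cyp7a1, the rate-limiting enzyme of bile acid synthesis and a D-box gene, had 568 and 482 CPM in WD tumour 1 and 3 but 60.4 CPM in WD tumour 2, 178 to 362 CPM in RD no tumour, and 6.58 and 112 CPM in RD tumour. Its log2 fold change was -2.41 ± 1.27 between RD tumour and RD no tumour (SE, edgeR adjusted p = 0.612) and 2.74 ± 1.29 between WD tumour and RD tumour (adjusted p = 0.590). Fmo5, a flavin monooxygenase, had 394, 1973 and 2982 CPM in RD no tumour, 118 and 812 CPM in RD tumour, and 4008, 1121 and 4276 CPM in WD tumour. Wee1, a cell cycle kinase under the E-box, was at 27.9 and 24.0 CPM in WD tumour 1 and 3, at 24.3 CPM in RD tumour 1 and at 5.81 to 15.7 CPM in the other 5 mice. Lonrf3 was at 56.1 and 30.7 CPM in RD tumour and 4.72 to 18.6 CPM in all others, with a log2 fold change of 2.15 ± 0.65 for RD tumour against RD no tumour (SE, edgeR adjusted p = 0.612). Elovl3, a fatty acid elongase, was at 57.1 CPM in RD no tumour 2 and 42.8 CPM in RD tumour 2 and at 8.30 CPM or below in the other 6; Insig2, a sterol sensor, was highest in RD tumour 2, at 659 CPM.

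Genes induced by outside stimuli were read in the same libraries. Of 13 genes induced by glucocorticoid, heat or serum, 0 were called by edgeR, and 2, 3 and 5 had an unadjusted p under 0.05 in the same order of comparisons (2.75%, 6.7% and 7.56% of all genes). RD tumour 1, the library with Per1 at 107 CPM, was also the highest for the immediate early genes Fos (64.7 CPM, against 2.06 to 20.3 CPM in the other 7) and Egr1 (40.2 CPM, against 5.34 to 27.9 CPM), for the kinase gene Sgk1 (84.0 CPM, against 20.4 to 38.6 CPM) and for the metallothionein Mt1 (3516 CPM, against 749 to 2269 CPM). Mt2, Hsp90aa1 and Klf9 of this list were also highest there, while Fkbp5, Tsc22d3, Tat, Hspa1a, Hspa1b and Hsph1 were higher in another library; these were named after their values were seen. Tat, an amino acid catabolic enzyme, stood at 275 to 711 CPM in WD tumour and 770 to 1422 CPM in the other 5 mice. Hspa1a was at 0.34 to 1.41 CPM in all 8 libraries. Of 11 genes of feeding and fasting, 0 were called, and 2, 0 and 3 had an unadjusted p under 0.05 (2.75%, 6.7% and 7.56% of all genes). Igfbp1, induced by fasting, was at 1818 CPM in RD tumour 1 and at 108 to 519 CPM elsewhere. Srebf1, the regulator of fat synthesis, was at 64.6, 26.0 and 56.2 CPM in WD tumour and 11.9 to 22.3 CPM in both diet-reversed groups, with a log2 fold change of 1.65 ± 0.43 for WD tumour against RD no tumour (SE, edgeR adjusted p = 1.0). Fasn and Pnpla3, of fat synthesis and lipid droplets, were highest in WD tumour 1 and 3, at 34.7 to 39.4 CPM and 3.34 to 3.42 CPM. How far feeding state moves with the clock genes in these mice was not tested.

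The genes most like Arntl and Dbp were ranked by Pearson correlation of log2(CPM + 1) over the 8 whole libraries, among 10465 genes with a mean of at least 10 CPM. The closest to Arntl was Clock (r = 0.976), followed by Lnx2 (0.959), Clcn3 (0.957) and Tubb2a (0.926). The closest to Dbp was Tef (r = 0.927), followed by Arrdc3 (0.923), Aifm2 (0.914), Bnip3 (0.889) and Slc46a3 (0.878). Per3 ranked 7 for likeness to Dbp (r = 0.852) and 10448 for likeness to Arntl. Without RD tumour 1, Tef stayed first for Dbp (r = 0.965) and Nr1d2, the paralogue of Nr1d1, came second (0.927), while Clock ranked 3 for Arntl (0.970), behind Lnx2 (0.988) and Gm26759 (0.986). Nr1d1 itself went from rank 92 (r = 0.673) to rank 24 (0.864) for likeness to Dbp without that library. These correlations share libraries and depth across genes, and a rank among many genes over 8 points is a description.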

How the data were processed

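The authors deposited raw counts: 1 matrix of UMI counts for each liver, made with Cell Ranger 7.0.0 per the file headers, on mm10 per the submitters' processing notes; libraries were 10x 3′ v3.1, per the labels' protocols. Whether intronic reads were counted, and how strand was set, is not given in the sources used here. No column of another series was present (0 unmapped).

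Barcodes were kept where 300 or more genes had a UMI, and counts were summed per mouse, for the whole library and for each gate. No doublet caller was run. Nuclei tied between classes other than hepatocytes stayed ungated if they did not meet the hepatocyte gate. Levels are CPM of the summed counts. Groups were compared with edgeR 4.0.16 in R 4.3.3 (TMM, filterByExpr, quasi-likelihood test, Benjamini-Hochberg adjustment, threshold 0.05), with DESeq2 1.42.0 as an alternative; each gate was set against hepatocyte-gated nuclei of the same mice with the mouse as a block, and its p-values are adjusted over all genes tested. The test script was tested on simulated data. Correlations of log2(CPM + 1) used exact permutation tests (40320 permutations, scipy 1.17.1; pandas 2.3.3, numpy 2.4.6, Python 3.11.15). Each library is 1 mouse, so the spread is that between mice.

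The 10 genes and all gene lists were chosen with earlier results of these data known. Gate thresholds were set after the data were seen. Besides the 10 genes, the text names the 3 genes of each list with the largest fold change in each comparison, and the 5 genes most like Arntl and Dbp; a few genes that this rule names are not reported here. Gene positions come from GENCODE M21 (GRCm38) and promoter sequences from RefSeq (GRCm38.p6). Alternatives were the normalization, the low-count filter, the mice in the fit, each mouse left out, a replicate block, barcode filters, mitochondrial genes left out, stricter gates and the pseudocount.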

Additional observations from a re-analysis of the deposited data

How the results depend on the processing

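Over 1296 alternative values for 81 results, 24 changed sign, all but 1 of them when a mouse was left out. The number of the 10 genes called by edgeR rose from 0 to 1 in whole libraries without RD tumour replicate 2, for RD tumour against RD no tumour and for WD tumour against RD tumour (Per1 in both), to 1 (Per1) and 2 (Per1 and Per3) in hepatocyte-gated nuclei, and to 1 and 1 (Per1) in endothelial-gated nuclei. In the same fits and order edgeR called 4569 and 4438 of 19873 genes in whole libraries, 5461 and 4327 of 17316 in hepatocyte-gated and 2200 and 2343 of 15483 in endothelial-gated nuclei. That setting leaves a lone RD tumour mouse, assumed to vary like the other groups. DESeq2 called 1 for WD tumour against RD tumour in whole libraries (Per3), 2 and 4 in hepatocyte-gated nuclei for RD tumour against RD no tumour and WD tumour against RD tumour, and 1 in endothelial-gated nuclei (Arntl). The phase index ranged over 5.59, and over 2.97 without RD tumour replicate 2. The cause was not tested.

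Leaving out 1 mouse at a time turned these log2 fold changes, given from lowest to highest. Comparing WD tumour with RD no tumour in whole libraries, they were Per1 from -0.25 to 0.022, Per2 from -0.020 to 0.62, Cry1 from -1.75 to 0.27 and Nr1d1 from -0.12 to 1.68. Between RD tumour and RD no tumour they were Per1 from -0.037 to 1.18, Per2 from -0.61 to 0.16 and Nr1d1 from -2.84 to 1.47, and for WD tumour against RD tumour Nr1d1 from -0.63 to 3.57. In hepatocyte-gated nuclei, the turned values for WD tumour against RD no tumour were Arntl from -1.31 to 0.025, Npas2 from -0.58 to 1.56, Per2 from -0.045 to 0.43, Cry1 from -1.89 to 0.25 and Nr1d1 from -0.28 to 1.88. Between RD tumour and RD no tumour they were Per1 from -0.29 to 0.79 and Nr1d1 from -3.11 to 0.97, and for WD tumour against RD tumour Per1 from -0.97 to 0.11 and Nr1d1 from -0.17 to 3.88. The correlation of Npas2 and Nr1d1 ran from -0.45 to 0.70.

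Whether the replicate numbers of the labels pair the mice, by batch or processing, could not be decided from expression. Same-numbered mice had correlations over 19087 genes of -0.61 to 0.46 in 7 pairs, and 1 of 8 libraries was closest to its own number. Each library of the other groups had equal and opposite values with both RD tumour mice, such as 0.46 and -0.46 for RD no tumour 1. Those values are therefore tied to each other and do not show that pairing is absent. With the replicate block, edgeR called 0 of the 10 genes in each of the 9 tests, and Nr1d1 in hepatocyte-gated nuclei turned to 0.51 between RD tumour and RD no tumour. Among whole libraries, the lowest held 24 UMIs of Npas2, 42 of Nr1d1 and 87 of Dbp, which limits these genes most. Gated counts were smaller. In the same order of genes, the lowest were 10, 13 and 29 UMIs in the hepatocyte gate, where Per3 had 18. They were 1, 11 and 17 UMIs in the endothelial gate and 2, 3 and 5 UMIs in the stellate gate.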
